A study of Mus musculus with 15 samples.

Results

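Estriol 24 h against estriol 2 h is the comparison of 6 one-colour microarrays, 3 of mouse uterus taken 24 h after an injection of estriol and 3 of uterus taken 2 h after it, out of 15 arrays in the series. They are all the arrays labelled E3 24h-1 to E3 24h-3 and E3 2h-1 to E3 2h-3. The comparison was chosen with earlier results of these data known. E2 in the labels was taken to stand for estradiol and E3 for estriol, the related oestrogen with one more hydroxyl on its D ring. All 5 groups of 3 arrays came from ovariectomized CD-1 mice, an outbred strain, so every group lacked ovaries. The estriol groups received 250 ng of E3 in 100 µl of saline, the estradiol groups 250 ng of E2 in 100 µl of saline with uteri taken at 2 h or 24 h, and the vehicle group 100 µl of saline alone. When the vehicle uteri were taken, the age of the mice, and whether the replicates of a group were separate animals or pools are not stated in the labels. The p-values therefore rest on the spread among these arrays alone, and that spread may be technical. The tissue was whole uterus, in which fewer cells of a type and less RNA per cell cannot be told apart.

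Oestrogens act in the uterus through the nuclear receptor encoded by Esr1, which sits in epithelium, stroma and muscle. Shortly after an injection, immediate early genes, signalling feedback genes and vascular permeability factors are transcribed, and the tissue takes up water. About a day later the epithelium replicates its DNA, divides and secretes, and the stroma lays down matrix. Estriol is known as a weak or short-acting oestrogen, which binds the receptor less tightly than estradiol and leaves the nucleus sooner after a single dose.

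A level below is the log2 signal of a gene's probe minus the 75th percentile of the log2 signals on its array, so 0 marks a probe at that percentile. A change is the mean level at 24 h minus the mean level at 2 h. It is given with its standard error (3 arrays against 3) and the p-value of limma's moderated test on these 6 arrays, adjusted by Benjamini-Hochberg over all probes tested. A gene was called, and is said to have risen or fallen, at an adjusted p under 0.05. Positive changes are higher at 24 h.

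The 75th percentile of the raw signal lay between 997 and 1737 on the 6 arrays and 63.1% to 75.9% of probes were well above background, the lowest share on E3 24 h replicate 2. Their number, 3 a group, limits the precision. The 24 h arrays spread more than any other group: the median standard deviation over genes was 0.273, against 0.160 to 0.198 in the 4 other groups, and correlations between replicates were 0.969 to 0.976, against 0.986 to 0.992. E3 24 h replicate 2 stood farthest apart. It lay at least 2-fold above both other 24 h arrays for 482 genes and at least 2-fold below both for 429. For replicate 3 these counts were 351 and 95, for replicate 1 they were 134 and 241, and on the 2 h arrays they were between 35 and 165. The results below that rest on one of these arrays are given with the values of each. Uterine and muscle markers were present: all 15 genes of the uterine list (Hoxa10, Hoxa11, Emx2, Pgr and others) and all 17 of the muscle list passed the filter on background at both times. The defining granulocyte genes Elane and Epx, the oviduct gene Sox2 and the egg coat gene Zp2 were above background on no estriol array. Fat cell markers were present and uneven, with a mean level over 15 genes of -0.41 to 1.79 at 2 h and 0.11 to 1.21 at 24 h.

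Between 2 h and 24 h after estriol some gene lists mostly fell and others mostly rose. Most immediate early genes, signalling feedback genes, early oestrogen-response genes and ribosome biogenesis genes fell, as did the secreted factors Vegfa, Pgf and Hbegf. Most interferon-response genes, macrophage markers and smooth muscle markers rose, as did the fibrillar collagens Col1a1, Col1a2 and Col3a1. Of the mitotic genes 18 of 60 rose, while genes of DNA replication fell or did not pass the test. Of 15402 genes tested, 5728 were called (37.2%), 3374 of them higher at 24 h (21.9%) and 2354 lower (15.3%). At least 2-fold, 1568 were called higher and 1120 lower. The 3 arrays of one time all lay above the 3 of the other for 8581 genes (55.7%), and among single probes 10846 of 29567 were called (36.7%). The median change of all genes tested was 0.17, and it was 0.09 with arrays scaled to their median instead, which moved the share of higher calls from 58.9% to 54.6% with quantile normalization and to 51.4% with the array median.

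The calls depended on which arrays entered. Without E3 2 h replicate 2 there were 2676 calls, without E3 2 h replicate 3 there were 2873, and without any other array between 3834 and 6016. No slide held both estriol times, so slide and time cannot be told apart within the estriol arrays. A slide effect could be fitted only through the estradiol arrays on the same slides, with 4 residual degrees of freedom. Slide 4 held E3 24 h replicates 1 and 3 and no other oestrogen array, so in this fit the 24 h time rests on E3 24 h replicate 2 alone, the array that stood farthest apart, assumed to vary like the other groups. Wherever the slide effect is given below, it is a comparison with that one 24 h array. It left 135 calls, 52 higher and 83 lower, of which 109 were shared with the 5728. Within the one scan day that held both times (E3 2 h replicates 2 and 3, E3 24 h replicates 1 and 3) there were 5381 calls, 4453 of them shared. Of the 206 called genes that the naming rule below gives, 19 were called under every alternative in which they were tested: Adamts1, Aqp5, Arc, B130024G19Rik, Bmf, Csrnp3, Egr1, Egr4, Fosl1, Gdf15, Hbegf, Muc1, Pgf, Ppp1r15a, Socs1, Socs3, Spry4, Trpv6 and Vegfa. Egr4, Fosl1 and Spry4 were not tested when all 6 arrays had to be above background. The slide effect ended the call of 175 and turned the sign of 9.

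**Figure D1:**
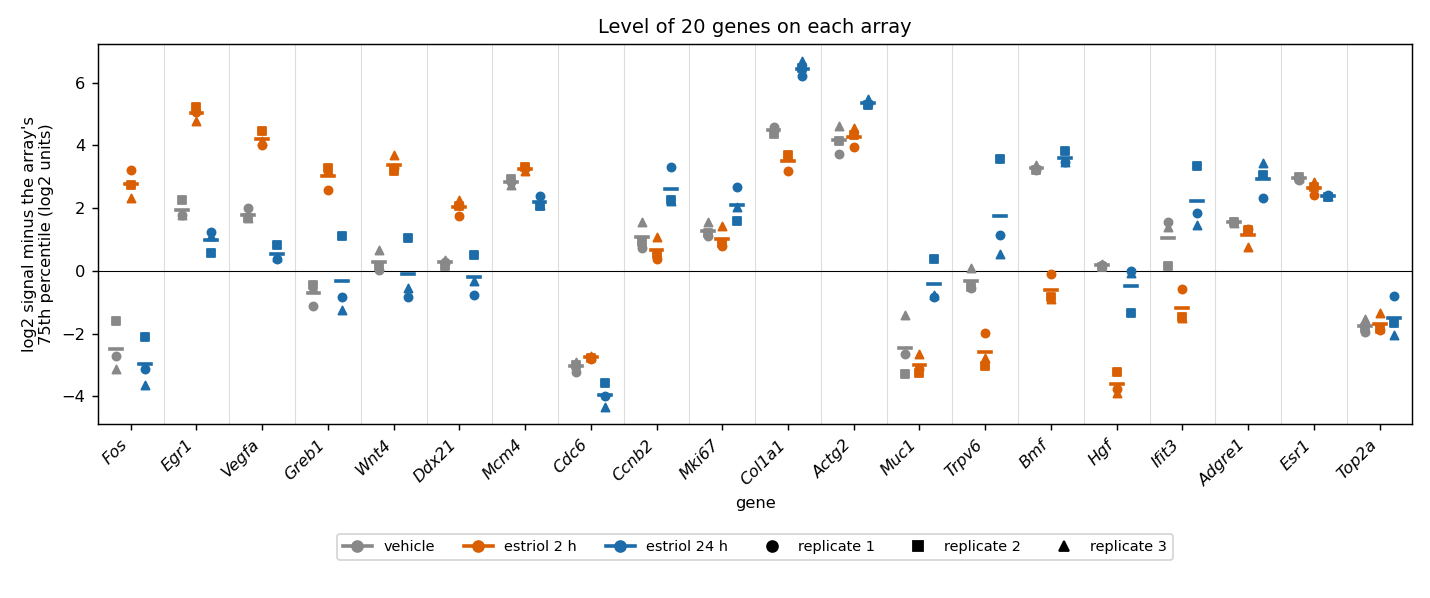
Levels of 20 genes on the vehicle (grey), estriol 2 h (orange) and estriol 24 h (blue) arrays, as log2 signal minus the 75th percentile of the array (log2 units, linear axis); each symbol is an array, its shape gives the replicate number, and bars are group means. Fos falls from between 2.33 and 3.20 at 2 h to between -3.63 and -2.10 at 24 h, Col1a1 rises from at most 3.69 to at least 6.20, and Esr1 overlaps between the times.

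The immediate early genes were the list that fell furthest. These encode transcription factors of the AP-1 and EGR families and others that are transcribed within minutes of a stimulus. Of 31 listed, 28 were tested: 24 fell, 1 was called higher and 3 were not called, with a median change of -2.97 against 0.17 over all genes tested. Fos, the AP-1 subunit, read 3.20, 2.72 and 2.33 at 2 h and -3.14, -2.10 and -3.63 at 24 h. The groups were far apart, a change of -5.71 ± 0.42 (adjusted p = 7.92e-04 by limma), and the 24 h levels lay around the vehicle mean of -2.49. Egr1, a zinc finger factor, read 5.06, 5.23 and 4.78 at 2 h and 1.24, 0.58 and 1.12 at 24 h, below the vehicle mean of 1.94, a change of -4.05 ± 0.22. Egr4 fell by 6.56 ± 0.33 and was above background on 2 of 3 arrays at 24 h. Arc, a synaptic immediate early gene, fell by 6.50 ± 0.40. Fosl1, another AP-1 subunit, fell by 5.75 ± 0.13, with 1 of 3 arrays above background at 24 h. Klf2 was the exception, at 0.99 ± 0.28, but its other probe changed by -2.47, so its direction is not settled. With the slide effect 14 of the 28 fell, with a median of -2.78.

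The promoters of members of this list are shown because serum response factor, a factor through which many immediate early genes are induced, binds the CArG box. RefSeq windows of 250 bases before to 50 after the start (GRCm38.p6) were searched on both strands. A CArG box was in 425 of 27025 windows (1.57%) and in 2 of the 21 windows of this list, those of Srf and Zfp36, which were picked out after their values were seen. Below are 70 bases of Srf (chr17:46556195-46556264, minus strand) and 50 of Zfp36 (chr7:28379257-28379306, minus strand), 5′ to 3′, with the CArG boxes in capitals.
Srf: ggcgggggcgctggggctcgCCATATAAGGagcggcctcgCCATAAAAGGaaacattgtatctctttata
Zfp36: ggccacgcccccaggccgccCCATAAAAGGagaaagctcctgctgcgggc
The boxes of Srf began 82 and 62 bases before the start, and that of Zfp36 began 58 bases before it. Srf, the factor itself, read 4.78, 4.81 and 4.84 at 2 h and 2.44, 2.34 and 2.45 at 24 h, a change of -2.40 ± 0.12 (adjusted p = 4.89e-04 by limma). Zfp36, which directs the decay of short-lived mRNAs, read 2.76, 2.33 and 2.22 at 2 h and -0.41, -0.35 and -0.48 at 24 h. Neither gene's groups overlapped. An oestrogen response element in its full palindromic form (GGTCA and TGACC with 3 bases between them) was in 18 of all windows and in none of the 21 here, which says only that these letters are not in these windows.

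Genes that damp growth factor and cytokine signalling fell with them. Of 22 tested, 15 fell and 3 rose, with a median of -1.51. Socs3, which shuts off cytokine receptors, read 6.11, 6.19 and 6.06 at 2 h and 1.78, 1.85 and 1.76 at 24 h, a change of -4.32 ± 0.12 (adjusted p = 1.97e-04 by limma). Its relative Socs1 fell by 4.31 ± 0.17 and the receptor kinase antagonist Spry4 by 4.66 ± 0.43, the latter above background on 2 of 3 arrays at 24 h. Rgs2, a regulator of G protein signalling, went the other way. It read 3.22, 3.37 and 3.02 at 2 h, below the vehicle mean of 5.93, and 6.39, 5.51 and 6.48 at 24 h, a change of 2.93 ± 0.28. Spry1 rose by 1.18 ± 0.21 to just under its vehicle mean. Under the slide effect 5 of the 15 falls were called.

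Of 24 early oestrogen-response genes tested, out of 25 listed, 17 fell and 2 rose, with a median of -2.17. In this list the second 24 h array stayed high for several genes. Inhbb, a subunit of activin and inhibin, read 6.71, 6.76 and 6.83 at 2 h and 1.15, 5.21 and 1.03 at 24 h, so that replicate 2 was nearer the 2 h arrays and replicates 1 and 3 were near the vehicle mean of 1.33. Gadd45g, a stress and growth arrest gene, read 7.92, 7.90 and 8.14 at 2 h and 3.21, 5.80 and 3.60 at 24 h. Greb1, a cofactor of the oestrogen receptor, read 2.59, 3.27 and 3.23 at 2 h and -0.85, 1.12 and -1.26 at 24 h, a change of -3.36 ± 0.61 (adjusted p = 0.00885 by limma). In all, 7 of the 24 were at least 2-fold higher on replicate 2 than on both other 24 h arrays. Txnip, which binds thioredoxin and limits glucose uptake, rose by 1.91 ± 0.21 to its vehicle level, and Klf15 rose by 1.34 ± 0.25. When E3 2 h replicate 2 or 3 was left out, the falls numbered 11 and 11, and with the slide effect 4.

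Among receptor genes Esr1 was not called. It read 2.40, 2.67 and 2.83 at 2 h and 2.42, 2.35 and 2.37 at 24 h. These overlap, with a change of -0.25 ± 0.15 (adjusted p = 0.235 by limma), and lay under the vehicle mean of 2.95. Pgr, the progesterone receptor, read -0.33, 0.07 and -0.12 at 2 h and -1.97, -0.65 and -2.30 at 24 h, a change of -1.51 ± 0.42, and its other probe gave -4.09. Among 22 of 26 listed steroid receptors and coregulators tested, 7 fell and 4 rose (31.8% and 18.2%, against 15.3% and 21.9% of all genes). The corepressor Nrip1 fell by 2.52 ± 0.27 and the receptor co-chaperone Fkbp5 by 2.04 ± 0.23, while the membrane oestrogen receptor gene Gper1 rose by 1.63 ± 0.35 and the coactivator Ppargc1a by 1.78 ± 0.32, with vehicle means of 0.23 and 0.41. After removal of E3 2 h replicate 2 or 3, the rises numbered 2 and 2, and with the slide effect none of the 22 was called.

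Secreted factors that act on vessels were among the falls. Of 27 vascular genes tested 12 fell and 5 rose (44.4% and 18.5%, against 15.3% and 21.9% of all genes). Vegfa, the vascular growth and permeability factor, read 4.02, 4.45 and 4.15 at 2 h and 0.38, 0.82 and 0.43 at 24 h, which is below the vehicle mean of 1.79, a change of -3.66 ± 0.19 (adjusted p = 4.89e-04 by limma). Its relative Pgf read 2.25, 2.74 and 2.48 at 2 h and -2.19, -2.38 and -1.58 at 24 h, around the vehicle mean of -2.09. Ramp3, a receptor partner for adrenomedullin, read 5.07, 5.44 and 5.78 at 2 h and 1.20, 4.66 and 1.59 at 24 h, again with replicate 2 near the 2 h arrays. Aplnr, the apelin receptor of endothelium, and Vegfd, a lymphatic growth factor, rose by 2.84 ± 0.23 and 1.61 ± 0.17. Both ended above their vehicle means of -0.27 and 0.73. Once E3 2 h replicate 2 or 3 was dropped, the falls numbered 7 and 7, and with the slide effect 2. The rises numbered 3 without any one 2 h array or without E3 24 h replicate 1 or 3.

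Other ligands fell alongside. Hbegf, a ligand of the EGF receptor family, read 3.98, 3.93 and 3.94 at 2 h and 0.19, 0.69 and 0.30 at 24 h, a change of -3.56 ± 0.17. Gdf15, a stress-induced member of the TGF-beta family, read 4.25, 4.33 and 4.54 at 2 h and -1.94, -0.77 and -2.08 at 24 h, and Inhba fell by 2.57 ± 0.29. Of 29 TGF-beta and BMP family genes tested 7 fell and 2 rose (24.1% and 6.9%, against 15.3% and 21.9% of all genes). None of the 29 rose without E3 2 h replicate 2. Wnt4, a signal for gland formation and decidualization, read 3.28, 3.17 and 3.69 at 2 h and -0.84, 1.05 and -0.56 at 24 h. Wnt9a fell by 2.62 ± 0.19, while the receptors Fzd1 and Fzd7 rose by 1.89 ± 0.14 and 1.41 ± 0.22 and the Wnt amplifier Rspo3 by 2.40 ± 0.24. Of 35 Wnt pathway genes tested 6 rose and 5 fell (17.1% and 14.3%, against 21.9% and 15.3% of all genes), with a median of 0.07. Ihh, the epithelial hedgehog ligand, read 0.08, -0.48 and 0.09 at 2 h and -2.58, -2.38 and -2.05 at 24 h, while the hedgehog co-receptor Boc and Nr2f2, a stromal factor downstream of Ihh, rose by 1.70 ± 0.15 and 1.51 ± 0.17. Of 13 hedgehog pathway genes tested 4 fell and 3 rose (30.8% and 23.1%). Without E3 2 h replicate 2 or 3 the hedgehog falls numbered 2 and 2, and with the slide effect 3 TGF-beta and BMP falls, no Wnt call and no hedgehog fall remained.

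Some growth factor genes rose and others fell, with shares near those of all genes in the EGF, FGF and HGF list. Hgf, the hepatocyte growth factor, read -3.76, -3.22 and -3.90 at 2 h and -0.02, -1.35 and -0.09 at 24 h. The 24 h arrays were near the vehicle mean of 0.17, so the difference of 3.14 ± 0.40 was between a low 2 h level and a level like that of vehicle. Its other probes gave 0.63 to 1.05. Btc, another EGF family ligand, and its receptor partner Erbb3 rose by 1.60 ± 0.24 and 1.60 ± 0.25, and Fgfr3 fell by 1.21 ± 0.15. Of 22 EGF, FGF and HGF genes tested 5 rose and 4 fell (22.7% and 18.2%, against 21.9% and 15.3% of all genes). When E3 2 h replicate 3 was left out, these numbered 3 and 2, without E3 2 h replicate 1 or 2 the falls numbered 2 and 2, and with the slide effect there were 0 rises and 1 fall. Igf1, the growth factor that stroma signals to epithelium with, read 3.07, 2.75 and 3.15 at 2 h and 1.62, 2.23 and 2.14 at 24 h, a change of -0.99 ± 0.21 (adjusted p = 0.0149 by limma), and its other probes gave -3.85 to -1.20. Among 16 of 17 listed genes of the insulin-like growth factor axis, 3 fell and 2 rose (18.8% and 12.5%). The rises numbered 4 without E3 24 h replicate 2 and 0 without E3 2 h replicate 2 or 3, E3 24 h replicate 3 or with the slide effect. Igfbp1, a binding protein, was at least 8.05-fold lower at 24 h, when it was not well above background (adjusted p = 0.00367 by limma). Pappa, a protease of these binding proteins, fell by 1.43 ± 0.23, while Igf2r and Irs1 rose by 0.96 ± 0.23 and 0.59 ± 0.14; the other probe of Irs1 gave -0.26.

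Some chemokine and protease genes rose and others fell. The neutrophil attractant Cxcl1 read -1.91, -1.13 and -1.12 at 2 h and -4.88, -4.78 and -4.74 at 24 h, and the monocyte attractant Ccl2 read 1.49, 1.14 and 1.09 at 2 h and -1.56, -1.47 and -0.79 at 24 h. Ccl7 fell by 2.37 ± 0.21. Ccl8 and the interferon-induced Cxcl10 were higher at 24 h by 2.61 ± 0.50 and 2.34 ± 0.54. Of 24 chemokine genes tested 5 fell and 4 rose (20.8% and 16.7%, against 15.3% and 21.9% of all genes). Without E3 2 h replicate 3, 2 rose. The matrix proteases Adamts4 and Adamts1 fell by 4.41 ± 0.34 and 3.20 ± 0.23 and the urokinase receptor gene Plaur by 2.70 ± 0.18. Mmp11 and Mmp23 rose by 1.92 ± 0.40 and 1.39 ± 0.28, Mmp11 to 3.71, 5.01 and 3.76 around its vehicle mean of 3.75. Of 23 protease and inhibitor genes tested 8 fell and 6 rose (34.8% and 26.1%). With the slide effect 1 chemokine rise, 1 protease fall and 1 protease rise remained.

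Among the prostaglandin genes with the largest called changes a synthase was lower at 24 h. The inactivating enzyme and the receptors Ptgfr and Ptger2 were higher. Ptges, a prostaglandin E synthase, read 2.10, 2.52 and 2.43 at 2 h and -1.12, -1.12 and -1.27 at 24 h, a change of -3.52 ± 0.16 (adjusted p = 4.76e-04 by limma). Hpgd, the enzyme that inactivates prostaglandins, read -1.23, -1.69 and -1.73 at 2 h and 1.42, 1.60 and 1.34 at 24 h, where vehicle was at 1.49. The receptor genes Ptgfr and Ptger2 rose by 2.92 ± 0.68 and 2.35 ± 0.61 and the retinoic acid receptor gene Rara fell by 1.60 ± 0.14. In the whole list of 28 prostaglandin and retinoid genes 7 rose and 6 fell (25% and 21.4%, against 21.9% and 15.3% of all genes). After removal of E3 2 h replicate 2, these were 3 and 3, without replicate 3 they were 2 and 3, without E3 24 h replicate 3 they were 4 and 3, and with the slide effect none was called.

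Most genes that build ribosomes fell. Of 60 ribosome biogenesis and nucleolar genes, all of them tested, 36 fell and 0 rose, with a median of -0.92. The mean level of the list was 1.89, 1.88 and 2.04 at 2 h and 0.74, 1.30 and 0.79 at 24 h, with vehicle at 1.02, 0.91 and 1.05. Rrs1, an assembly factor of the large subunit, read 2.31, 2.39 and 2.62 at 2 h and -0.20, 1.00 and -0.15 at 24 h, a change of -2.23 ± 0.34 (adjusted p = 0.00503 by limma). The nucleolar helicase gene Ddx21 fell by 2.23 ± 0.34 and Rrp12, a factor for export of the subunits, by 2.31 ± 0.50. The genes of the ribosomal proteins themselves did not follow: of 75 tested 13 rose and 0 fell, with a median of 0.42. The share that rose, 17.3%, was below the 21.9% of all genes. These values depended on the scaling and on single arrays. The median was -0.05 and 3 rose with quantile normalization, 4 rose with the array median, 1 rose without E3 2 h replicate 2 or without replicate 3, 5 without E3 24 h replicate 2, 2 without replicate 3 and 27 without replicate 1. Under the slide effect, with E3 24 h replicate 2 as its only 24 h array, the median of the 60 biogenesis genes was nearer zero, at -0.47. Over the 22 alternatives the biogenesis falls numbered between 0 and 49, against 36 in the main fit. Their median lay between -1.1 and -0.47.

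Of the heat shock and endoplasmic reticulum genes that were called, most fell. Of 28 heat shock chaperone genes tested, out of 29 listed, 14 fell and 1 rose. Hsph1, a helper of HSP70, read 3.75, 4.35 and 4.27 at 2 h and 1.82, 2.58 and 2.07 at 24 h, and Dnajb1 and Hspa4l fell by 1.48 ± 0.13 and 1.32 ± 0.15. Hsp90ab1, the constitutive HSP90, rose by 0.66 ± 0.14. Of 35 endoplasmic reticulum genes 12 fell and 4 rose (34.3% and 11.4%, against 15.3% and 21.9% of all genes). Ppp1r15a, which restores translation after stress, read 2.83, 2.77 and 2.65 at 2 h and -0.20, 0.30 and -0.02 at 24 h, the stress factor Atf4 fell by 2.25 ± 0.21 and the lumenal chaperone gene Hspa5 by 1.58 ± 0.23. P4hb, a disulfide isomerase and collagen prolyl hydroxylase subunit, and the stress kinase gene Eif2ak3 rose by 0.65 ± 0.16 and 0.76 ± 0.22. Once E3 2 h replicate 2 or 3 was dropped, the heat shock falls numbered 7 and 9 and the endoplasmic reticulum falls 7 and 7, with 0 rises, and with the slide effect 0 and 1 falls were called. The endoplasmic reticulum rises were 0 without E3 2 h replicate 1 or E3 24 h replicate 3, and 2 without E3 24 h replicate 1 or 2.

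The largest falls outside these lists included Trim15, a ubiquitin ligase gene, which read 0.62, 0.73 and 1.28 at 2 h and -7.08, -2.78 and -7.48 at 24 h, with 2 of 3 arrays above background at 24 h. Has1, which makes hyaluronan, read 1.70, 2.81 and 1.89 at 2 h and -3.90, -3.84 and -4.39 at 24 h, a change of -6.17 ± 0.32 (adjusted p = 4.89e-04 by limma), with vehicle at -3.83. The nuclear factor gene Csrnp3 fell by 5.80 ± 0.29. The heart myosin genes Myh7 and Myh6 were lower as well: Myh7 read -0.58, 1.43 and 0.64 at 2 h and -5.63, -4.71 and -5.49 at 24 h, and Myh6 was at least 12.8-fold lower at 24 h, when it was not well above background. These 2 genes are near-identical neighbours whose probes may share targets. The same holds for the hair keratin genes Krt87 and Krt86. Krt87 read 2.45, 2.69 and 2.74 at 2 h and -4.70, 0.48 and -4.90 at 24 h, so 2 of the 24 h arrays were at the vehicle mean of -4.48 and replicate 2 was not.

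The 12 largest rises held several genes for which the 24 h arrays had the level of vehicle and the 2 h arrays were low. Bmf, a pro-apoptotic member of the BCL2 family, read -0.11, -0.83 and -0.88 at 2 h and 3.46, 3.82 and 3.47 at 24 h, with vehicle at 3.27, a change of 4.19 ± 0.25 (adjusted p = 5.49e-04 by limma). B130024G19Rik, a transcript of unassigned function, read -3.36, -3.54 and -3.78 at 2 h and 0.73, -0.36 and 0.48 at 24 h, with vehicle at 0.85. Hcar1, a lactate receptor, Zfp750, an epidermal differentiation factor, and Fgf20 rose by 4.32 ± 0.68, 4.07 ± 0.64 and 3.65 ± 0.33. Their vehicle means were -3.24, -3.92 and -3.59, and their 24 h arrays lay between -3.55 and -3.20, between -3.99 and -2.73 and between -3.88 and -3.42. At 2 h their probes were above background on only 2, 1 and 1 of 3 arrays, so the sizes of these rises are uncertain. Of 17 BCL2 family genes 4 rose and 5 fell (23.5% and 29.4%, against 21.9% and 15.3% of all genes). Bad, another pro-apoptotic member, rose by 1.78 ± 0.21, the survival genes Bcl2l1 and Mcl1 fell by 1.02 ± 0.13 and 0.93 ± 0.14, and Bcl2l2 fell by 0.76 ± 0.20 with an opposite value of 1.12 on its other probe. The BCL2 falls numbered 3, 2 and 2 without E3 2 h replicate 1, 2 or 3 and 3 and 2 without E3 24 h replicate 1 or 3, and with the slide effect 1 rise and 0 falls were called.

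Other large rises went above vehicle and varied among the 24 h arrays. Trpv6, the epithelial calcium channel, read -1.99, -3.03 and -2.77 at 2 h and 1.13, 3.55 and 0.53 at 24 h, with vehicle at -0.33, a change of 4.33 ± 0.78 (adjusted p = 0.00825 by limma). Slc26a4, the anion exchanger pendrin, read -4.91, -4.91 and -5.65 at 2 h and -1.27, 0.57 and -2.81 at 24 h. Clca1, a secreted regulator of chloride channels, read 2.85, 2.38 and 1.75 at 2 h and 6.07, 7.76 and 4.24 at 24 h. In all 3 genes replicate 2 was the highest 24 h array and replicate 3 the lowest. Rnf186, a ubiquitin ligase gene, and Fer1l4 were ordered the same way and rose by 5.19 ± 0.85 and 3.65 ± 1.02. Etnppl, an enzyme of phospholipid metabolism, was at least 17.3-fold higher at 24 h than at 2 h, when it was not well above background (adjusted p = 0.0204 by limma).

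Aquaporin and ion transport genes changed in both directions. The water channel Aqp5 read 4.40, 4.97 and 5.06 at 2 h and 1.41, 3.14 and 1.36 at 24 h, a change of -2.84 ± 0.50 (adjusted p = 0.00796 by limma), and Aqp8 read 2.16, 1.91 and 2.21 at 2 h and -3.94, -2.53 and 0.86 at 24 h. Vehicle was lower still for both, at 1.10 and -4.45, and Aqp8 lost its call under 11 of 22 alternatives. Of 20 aquaporin and ion transport genes tested, out of 22 listed, 5 rose and 5 fell (25% each way, against 21.9% and 15.3% of all genes). Without E3 2 h replicate 2 or 3 these were 3 and 2 in each case, 3 fell without replicate 1, 8 rose without E3 24 h replicate 2, and with the slide effect 1 rose and 1 fell.

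Secretory products of the oestrogen-treated epithelium had a median of 1.10, and of 31 tested, out of 32 listed, 5 rose and 3 fell. These shares, 16.1% and 9.68%, were below the 21.9% and 15.3% of all genes. Muc1, a membrane mucin, read -3.13, -3.24 and -2.66 at 2 h and -0.84, 0.38 and -0.77 at 24 h, a change of 2.60 ± 0.36 (adjusted p = 0.00374 by limma), above the vehicle mean of -2.45. Ltf, lactoferrin, read 1.26, 2.58 and 1.84 at 2 h and 4.10, 7.42 and 3.39 at 24 h. Its groups did not overlap, yet its change of 3.08 ± 1.03 did not pass the test (adjusted p = 0.0574 by limma), and vehicle was at 3.44. Lcn2, a siderophore-binding lipocalin, read -1.22, -0.81 and -0.64 at 2 h and -0.51, 3.45 and -0.88 at 24 h. Complement C3 read 6.73, 5.97 and 5.86 at 2 h and 6.45, 8.54 and 6.87 at 24 h. On replicate 2 alone both genes were far above the 2 h arrays, and 18 of the 31 were at least 2-fold above both other 24 h arrays there. Sprr2f, a cornified envelope gene known for its response to oestrogen in the uterus, read 0.28, 0.86 and 2.40 at 2 h and 3.41, 7.19 and 3.57 at 24 h, and carbonic anhydrase Car2 rose by 1.92 ± 0.60. When E3 2 h replicate 1, 2 or 3 was left out, the rises numbered 3, 3 and 2 and the falls 1, 1 and 1, without E3 24 h replicate 1 the rises numbered 8, and 5 fell without replicate 2. With all 15 arrays in the fit 14 rose and 5 fell, within the one scan day 7 rose and 6 fell, and with the slide effect 5 rose and 1 fell, with a median of 1.73.

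Keratins and small proline-rich proteins had the same array pattern. Of 25 tested, out of 30 listed, 5 rose and 4 fell (20% and 16%, near the shares of all genes). Their median was 0.92, and 9 were at least 2-fold above both other 24 h arrays on replicate 2. The simple epithelial keratin Krt8 read 5.31, 4.35 and 5.13 at 2 h and 5.88, 6.58 and 5.69 at 24 h. Krt13, of stratified epithelium, rose by 1.00 ± 0.17, with -0.07 on its other probe, and Krt4 was at least 27.8-fold lower at 24 h, when it was not well above background. Markers of epithelium were also highest on replicate 2, and their part in the result was not tested. Of 17 tested 4 rose and 1 fell (23.5% and 5.88%, against 21.9% and 15.3% of all genes). Their mean level was 0.93 to 1.59 at 2 h and 1.29, 2.05 and 1.19 at 24 h. Only E3 24 h replicate 2 thus lay above the 2 h range, and no marker was at background. The tight junction gene Cldn3 and the keratin gene Krt19 rose by 1.16 ± 0.32 and 0.93 ± 0.27 and the epithelial factor Grhl2 fell by 1.07 ± 0.26. No epithelial rise was called without E3 2 h replicate 2 or 3, and 1 was without E3 24 h replicate 1 or 2, when 3 fell without replicate 2. The keratin counts, 5 higher and 4 lower, became 3 and 2 without E3 2 h replicate 1, 1 and 1 without replicate 2 or 3, and 3 and 1 without E3 24 h replicate 3; 1 fell without E3 24 h replicate 1.

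The kallikreins of the Klk1 cluster, secreted proteases encoded by near-identical neighbouring genes, differed most between replicates at 24 h. The mean level of the 11 tested, out of 14 listed, was -0.92, -0.09 and -0.09 at 2 h and -3.77, -1.38 and 1.72 at 24 h, with vehicle at -5.34, -5.36 and -5.94. All 11 were at least 2-fold lower on replicate 1 than on both other 24 h arrays and 8 were at least 2-fold higher on replicate 3. Only 2 were called, both lower: Klk1b27 read -1.58, -0.69 and -0.38 at 2 h and -5.57, -3.55 and -3.30 at 24 h, and Klk1b24 read -0.18, 0.27 and 0.53 at 2 h and -5.13, -1.38 and -2.53 at 24 h. The list's median of -0.13 was -2.11 without E3 24 h replicate 3, 1.41 without replicate 1 and 0.32 without replicate 2, so its sign rests on single arrays. Signals of these genes may cross between probes.

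**Figure D2:**
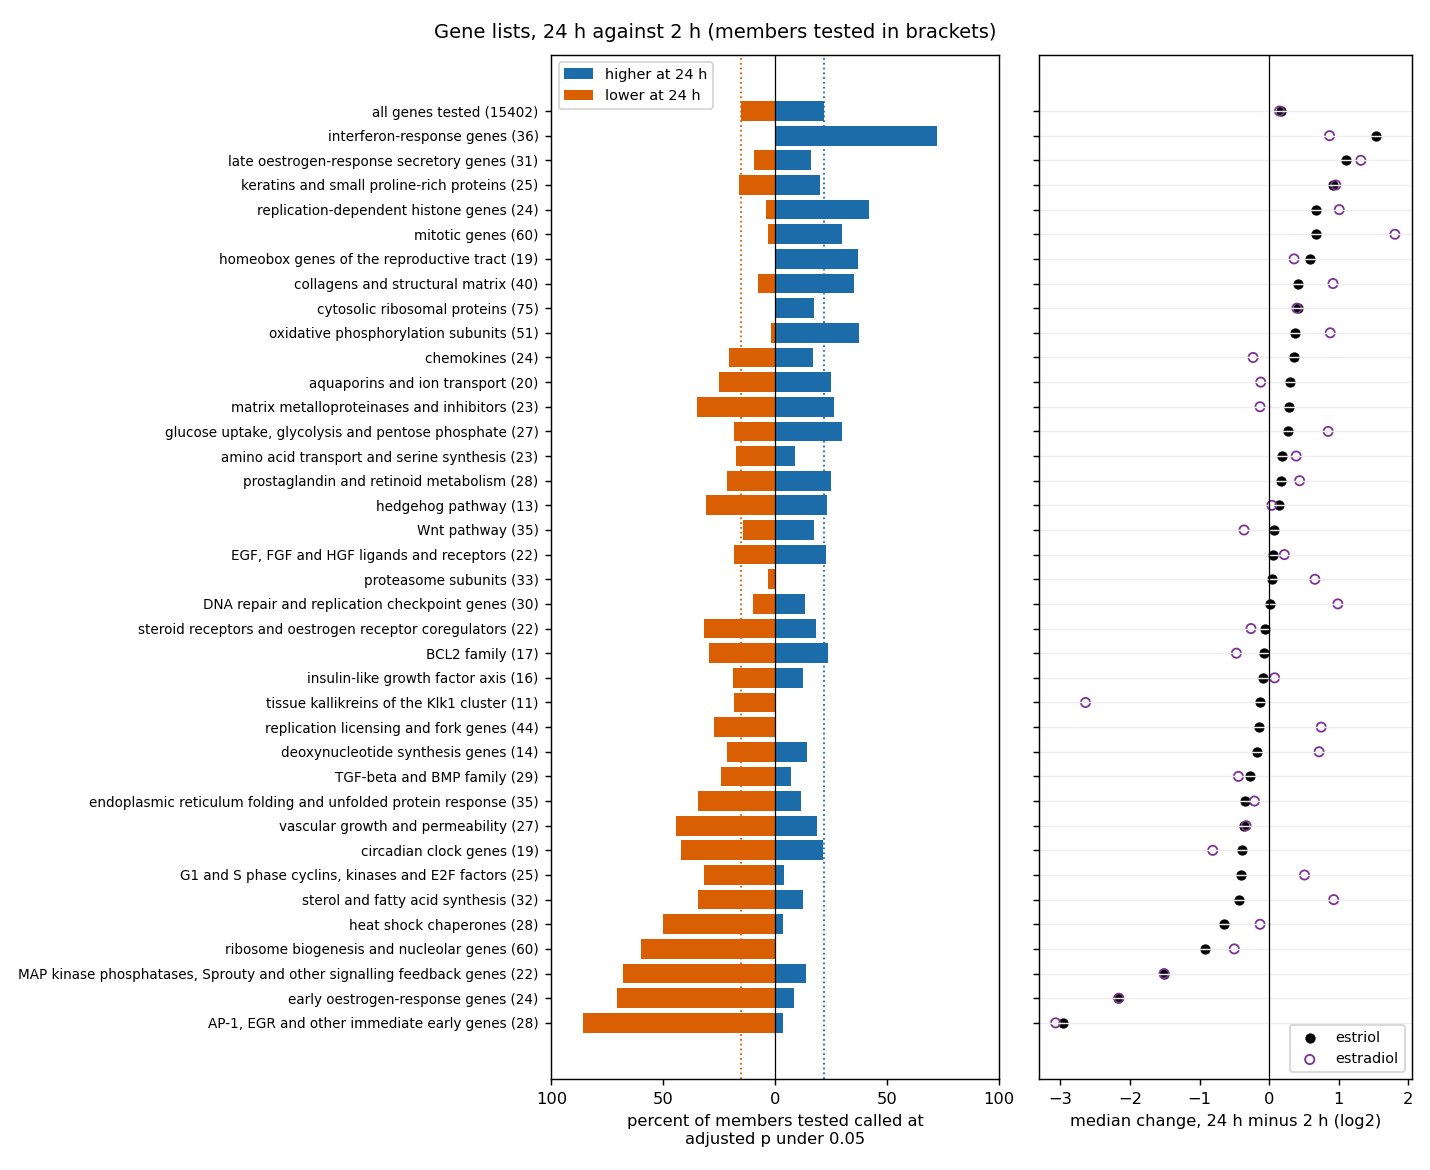
Left, the share of tested members (percent) of each gene list called higher (blue, to the right) or lower (orange, to the left) at 24 h than at 2 h after estriol, with dotted lines at the shares of all genes tested; right, the median change of each list (log2) under estriol (filled) and estradiol (open). Interferon-response genes have the largest share higher, 26 of 36, and immediate early genes the largest share lower, 24 of 28. The replication and sterol lists are among several with medians of opposite sign under the 2 oestrogens. Others include the G1 and S phase list (-0.41 under estriol, 0.51 under estradiol) and the chemokines (0.36 and -0.23).

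The fibrillar collagens and most smooth muscle markers rose. Of 40 collagen and structural matrix genes 14 rose, 3 fell and 23 were not called, with a median of 0.42. Col1a1, the main chain of fibrillar collagen I, read 3.19, 3.69 and 3.66 at 2 h and 6.20, 6.46 and 6.68 at 24 h, a change of 2.94 ± 0.20 (adjusted p = 7.35e-04 by limma), above the vehicle mean of 4.50. Its partner Col1a2 read 4.81, 5.39 and 5.21 at 2 h and 7.39, 7.59 and 7.58 at 24 h, and Col3a1 read 3.74, 4.32 and 3.63 at 2 h and 6.24, 6.09 and 6.39 at 24 h. In each of these genes the lowest 24 h array was above the highest 2 h array. Lamb1, a laminin chain of basement membranes, fell by 1.49 ± 0.17 and Col6a3 by 0.81 ± 0.19. Of 13 stromal markers 6 rose, led by the collagens and the proteoglycan gene Lum at 1.51 ± 0.18, and none fell. Of 17 smooth muscle markers 10 rose and 0 fell, with a median of 0.66: Actg2, an actin of visceral muscle, read 3.95, 4.32 and 4.56 at 2 h and 5.30, 5.27 and 5.48 at 24 h, and the Z-disc gene Ldb3 and the calmodulin-binding gene Pcp4 rose by 1.27 ± 0.27 and 1.05 ± 0.21. The mean level of the muscle list was 2.97 to 3.28 at 2 h, 3.50 to 3.89 at 24 h and 3.00 to 3.46 with vehicle. The matrix falls numbered 1 without each of E3 2 h replicates 2 and 3 and E3 24 h replicate 3. The muscle rises numbered 6 with quantile normalization, 5, 2 and 6 without E3 2 h replicate 1, 2 or 3, and 6 without E3 24 h replicate 3. With the slide effect 1 matrix rise and no stromal or muscle rise was called, and the muscle median was -0.02.

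Some homeobox genes that pattern the reproductive tract rose. Of 19 tested, out of 21 listed, 7 rose, 0 fell and 12 were not called, with a median of 0.59. Hoxa10, needed for uterine receptivity, read 1.37, 1.30 and 1.31 at 2 h and 2.82, 2.11 and 2.48 at 24 h, under the vehicle mean of 3.11, a change of 1.14 ± 0.20 (adjusted p = 0.00779 by limma). Hoxa9 read -1.21, -0.89 and -1.02 at 2 h and 1.08, 0.22 and 0.41 at 24 h, with vehicle at 1.19, and Msx1, a homeobox gene of the epithelium, rose by 1.05 ± 0.18. Of the 15 uterine markers, which include several of these, 7 rose and 2 fell. After removal of E3 2 h replicate 2 or 3, the homeobox rises numbered 4 and 4, the uterine marker rises 4 without replicate 3, and with the slide effect neither list had a rise.

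Most interferon-response genes rose. These are antiviral and antigen-processing genes that follow the interferon receptors. Of 36 listed, all were tested: 26 rose (72.2%, against 21.9% of all genes) and 0 fell, with a median of 1.54. The mean level of the list was -0.04, -0.30 and -0.38 at 2 h and 0.79, 2.07 and 1.17 at 24 h. Vehicle was at 0.55, 0.62 and 1.00, above the 2 h arrays and overlapping the 24 h arrays. Rsad2, the antiviral enzyme viperin, read -2.71, -3.13 and -3.56 at 2 h and -0.21, 0.46 and 0.07 at 24 h, a change of 3.24 ± 0.27 (adjusted p = 0.00104 by limma), and vehicle was at 0.00. Ifit3, which binds to viral RNA complexes, read -0.59, -1.48 and -1.51 at 2 h and 1.85, 3.35 and 1.46 at 24 h, a change of 3.42 ± 0.53. Zbp1, a sensor of nucleic acids, read -1.36, -1.71 and -1.60 at 2 h and -0.14, 2.77 and 1.11 at 24 h. On replicate 2, 17 of the 36 were at least 2-fold above both other 24 h arrays. Once E3 2 h replicate 2 or 3 was dropped, the rises numbered 12 and 12, and with the slide effect, which at 24 h uses replicate 2 alone, the array with the highest level of this list, 3 were called and the median was 2.07.

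Promoters of members are shown because the interferon-stimulated response element is the site that the interferon-activated factors bind. Its core, GAAA and GAAA with 2 bases between them, searched on both strands after the counts of this list were seen, was in 15 of 26 windows of the list, against 943 of 27025 windows of all genes (3.49%). Below are 84 bases of Ifit3 (chr19:34583353-34583436, plus strand), 50 of Rsad2 (chr12:26456543-26456592, minus strand) and 69 of Ifit1 (chr19:34640765-34640833, plus strand), 5′ to 3′, from RefSeq on GRCm38.p6, with the core in capitals. In all 3 it lies on the opposite strand, so it reads as its reverse complement.
Ifit3: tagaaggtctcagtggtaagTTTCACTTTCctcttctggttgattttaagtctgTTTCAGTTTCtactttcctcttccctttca
Rsad2: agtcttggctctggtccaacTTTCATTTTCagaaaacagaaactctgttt
Ifit1: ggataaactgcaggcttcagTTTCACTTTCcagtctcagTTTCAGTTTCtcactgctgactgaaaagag
Ifit1, a partner of Ifit3 picked out after its values were seen, read -0.96, -1.71 and -1.76 at 2 h and 0.15, 1.63 and -0.18 at 24 h, a change of 2.01 ± 0.50 (adjusted p = 0.0226 by limma). Its cores began 104 and 85 bases before the start, those of Ifit3 156 and 122 bases and that of Rsad2 120 bases before it.

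Macrophage markers moved in the same direction on the same arrays, and their part in the interferon result was not tested. Of 17 tested, 12 rose and 0 fell, with a median of 1.21. Their mean level was 0.39, 0.16 and -0.15 at 2 h, 0.95, 1.74 and 1.67 at 24 h and 0.53 to 0.61 with vehicle, and no marker was at background. Adgre1, which encodes F4/80, read 1.32, 1.31 and 0.77 at 2 h and 2.31, 3.04 and 3.43 at 24 h, a change of 1.79 ± 0.32 (adjusted p = 0.00807 by limma). The antibody receptor gene Fcgr1, which is also induced by interferon, read -0.05, -0.11 and 0.19 at 2 h and 1.23, 2.98 and 2.04 at 24 h, and the scavenger receptor gene Msr1 rose by 1.88 ± 0.33. Without E3 2 h replicate 2 or 3, or E3 24 h replicate 3, the rises numbered 6, 7 and 7, and with the slide effect 0. Lymphocyte, natural killer and dendritic cell markers, 21 tested, had 3 rises (14.3%, against 21.9% of all genes). Their mean level was -2.58 to -2.09 at 2 h, -1.95 to -1.08 at 24 h and -1.85 to -1.34 with vehicle. H2-Eb1, a class II antigen-presenting chain, read -2.41, -2.74 and 0.99 at 2 h and 1.85, 2.16 and 3.62 at 24 h, with an outlying 2 h replicate 3, and Gzma and Prf1, of cytotoxic granules, rose by 2.11 ± 0.46 and 1.06 ± 0.32. Without E3 24 h replicate 1, 8 of the 21 rose, and without any other array 1 rose. Of 13 granulocyte markers tested, out of 20 listed, Mpo rose by 1.38 ± 0.33 and Kit, of mast cells, fell by 1.38 ± 0.17.

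Endothelial markers did not move as a group, with a median of 0.03. Of 18, 3 rose and 3 fell (16.7% each way, against 21.9% and 15.3% of all genes). The fenestra gene Plvap and the junction gene Cldn5 rose by 0.91 ± 0.17 and 0.72 ± 0.19, Sox17 rose by 0.61 ± 0.17, and the co-receptor gene Eng and the lymphatic marker Lyve1 fell by 1.11 ± 0.26 and 1.08 ± 0.15. Without E3 24 h replicate 2, 5 rose, and without either of E3 2 h replicates 2 and 3 or of E3 24 h replicates 1 and 3, 1 rose. When E3 2 h replicate 2 or 3 was left out, 1 fell. Of 15 fat cell markers 2 fell: Pparg, the fat cell factor, which is also made in other uterine cells, read 2.11, 1.77 and 1.85 at 2 h and -0.47, -1.40 and -0.97 at 24 h, and Ucp1 was at least 1.59-fold lower at 24 h, when it was not well above background. None of the 4 red cell markers tested was called. Of 6 oviduct markers tested the cilia factor gene Foxj1 rose by 1.37 ± 0.35. Of 6 ovary markers tested Inha and Cyp17a1 rose by 1.73 ± 0.23 and 1.65 ± 0.31 and Foxl2, which the uterus also makes, fell by 1.06 ± 0.26. Of 7 mesothelium markers Krt19, shared with the epithelium, rose and Wt1, also of stroma and muscle, fell by 1.08 ± 0.20.

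**Figure D3:**
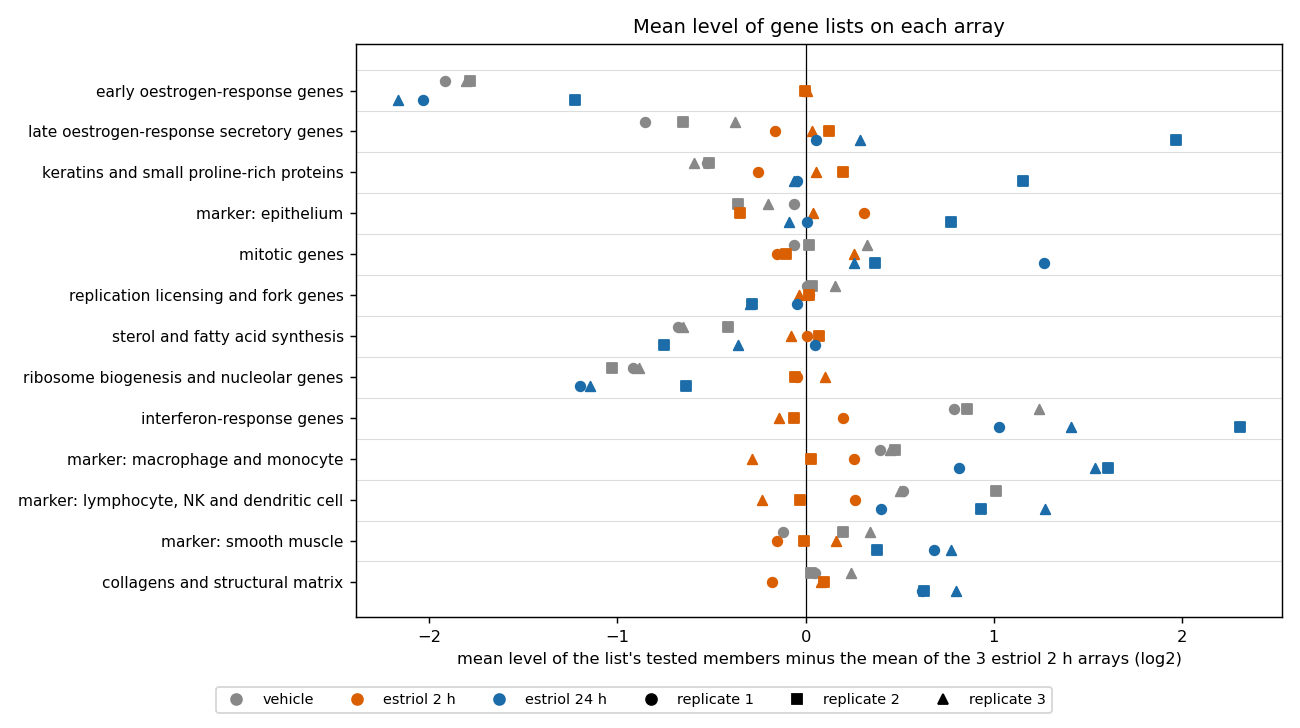
Mean level of the tested members of 13 lists on each vehicle (grey), estriol 2 h (orange) and estriol 24 h (blue) array, minus the mean of the 3 estriol 2 h arrays (log2 units, linear axis); symbol shape gives the replicate number. E3 24 h replicate 2 stands above the others for the secretory, keratin, epithelial and interferon lists, E3 24 h replicate 1 for the mitotic list, and the 3 replicates lie close together for the collagens.

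Of the cell division genes that were called, those of mitosis mostly rose and those of DNA replication fell. Of 60 mitotic genes tested, 18 rose, 2 fell and 40 were not called, with a median of 0.67, and the 30% that rose compare with 21.9% of all genes. The mean level of the list was -1.53, -1.48 and -1.12 at 2 h and -0.11, -1.01 and -1.12 at 24 h, with vehicle at -1.44, -1.36 and -1.05. Replicate 1 was thus well above the 2 h arrays, while replicates 2 and 3 were near vehicle, and 20 of the 60 were at least 2-fold higher on replicate 1 than on both others. Ccnb2, a cyclin of mitosis, read 0.39, 0.55 and 1.07 at 2 h and 3.32, 2.26 and 2.22 at 24 h, a change of 1.93 ± 0.35 (adjusted p = 0.00838 by limma). Its relative Ccnb1 read -2.77, -3.09 and -2.54 at 2 h and -0.53, -1.43 and -2.03 at 24 h, and the proliferation marker Mki67 read 0.78, 0.88 and 1.42 at 2 h and 2.66, 1.59 and 2.03 at 24 h. Ube2c, which marks mitotic proteins for destruction, and the phosphatase gene Cdc25c rose by 1.59 ± 0.43 and 1.55 ± 0.38. Top2a, the topoisomerase that disentangles chromosomes, read -1.90, -1.85 and -1.35 at 2 h and -0.79, -1.68 and -2.04 at 24 h, overlapping, with a change of 0.20 ± 0.34 (adjusted p = 0.676 by limma). Mad2l1, of the spindle checkpoint, went against the list and read 2.56, 3.13 and 3.07 at 2 h and -0.60, -1.16 and -1.71 at 24 h, around the vehicle mean of -1.35, with -4.17 on its other probe. Bub3 fell by 0.58 ± 0.15. The mitotic rises numbered 2, 2 and 7 without E3 2 h replicate 1, 2 or 3, 4 within the one scan day and 0 with the slide effect.

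No gene of replication licensing and the fork was called higher. Of 44 listed, all were tested: 12 fell, 0 rose and 32 were not called, with a median of -0.14. The mean level was 0.63, 0.63 and 0.58 at 2 h, 0.57, 0.33 and 0.32 at 24 h and 0.62, 0.65 and 0.77 with vehicle, so the 24 h arrays were all below the lowest of the others. Mcm4, a subunit of the replicative helicase, read 3.27, 3.32 and 3.19 at 2 h and 2.38, 2.08 and 2.09 at 24 h, a change of -1.08 ± 0.14 (adjusted p = 0.00338 by limma), with vehicle at 2.82. Mcm2 read 0.82, 0.83 and 1.22 at 2 h and -0.19, 0.41 and -0.34 at 24 h. Cdc6, which loads that helicase, read -2.80, -2.77 and -2.71 at 2 h and -3.98, -3.58 and -4.34 at 24 h, a change of -1.21 ± 0.21. Tipin, of the fork protection complex, fell by 1.12 ± 0.16. In the G1 and S phase list 8 of 25 fell and 1 rose (32% and 4%, against 15.3% and 21.9% of all genes). The cell cycle inhibitor Cdkn1a read 1.22, 2.41 and 2.20 at 2 h and -1.35, -0.53 and -1.08 at 24 h, with vehicle at -1.36, the cyclin genes Ccnd2 and Ccne2 fell by 1.71 ± 0.21 and 1.45 ± 0.35, the latter above background on 2 of 3 arrays at 24 h, and E2f2 rose by 1.53 ± 0.14. The replication falls numbered 5 and 4 without E3 2 h replicate 2 or 3, 6 without E3 24 h replicate 3 and 0 with the slide effect. The G1 and S falls numbered 5, 2 and 2 without E3 2 h replicate 1, 2 or 3, 5 without E3 24 h replicate 3 and 0 with the slide effect.

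Among the nucleotide, histone and repair lists the histone genes had the largest share called higher, at 41.7%. Of 14 deoxynucleotide synthesis genes 3 fell and 2 rose (21.4% and 14.3%, against 15.3% and 21.9% of all genes). Rrm2, a ribonucleotide reductase subunit, read -1.88, -1.67 and -1.49 at 2 h and -2.55, -2.69 and -2.70 at 24 h. Nme1 and Dck fell by 1.05 ± 0.25 and 0.63 ± 0.16. Samhd1, which breaks the nucleotides down and is also interferon-induced, rose by 1.00 ± 0.29, as did Nme4 by 0.83 ± 0.20. Of 24 replication-dependent histone genes tested, out of 53 listed and 27 on the array, 10 rose and 1 fell, with a median of 0.67. H2ac8 read -5.61, -6.52 and -6.27 at 2 h and -4.27, -4.44 and -4.95 at 24 h. H1f2 and H2bu2 rose by 1.52 ± 0.36 and 1.21 ± 0.25 and H1f1 fell by 0.74 ± 0.15; histone genes are close copies whose signals may cross. Of 30 repair and checkpoint genes tested 4 rose and 3 fell (13.3% and 10%, below the 21.9% and 15.3% of all genes). Chek2, Fancb and Xrcc3 were higher by 1.27 ± 0.26, 0.87 ± 0.23 and 0.73 ± 0.21. Rad18 was lower by 1.98 ± 0.26 and Uhrf1, which maintains DNA methylation, by 0.78 ± 0.23. After removal of E3 2 h replicate 2 or 3, the histone rises numbered 5 and 4 and the repair rises 0 and 0. The repair rises numbered 1 without E3 2 h replicate 1, E3 24 h replicate 1 or replicate 3, and 6 repair genes fell without E3 24 h replicate 1. Once E3 2 h replicate 2 or 3 was dropped, no nucleotide gene rose and 1 fell, and 1 fell without E3 24 h replicate 1 or 3. With the slide effect 1 histone and 0 repair rises were called.

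Promoters of these genes are shown for elements known from cell division genes. They are the CCAAT box with the cell cycle homology region (CHR) in mitotic genes and the E2F site in replication genes. The CHR letters, TTTGAA, were in 33 of 51 mitotic windows against 4893 of 27025 of all genes (18.1%), and CCAAT in 35 of 51 against 10248 (37.9%). CCAAT was not particular to mitotic windows: it was also in 21 of 35 replication windows (60.0%) and 18 of 21 histone windows (85.7%). The E2F letters TTTCCCGC were in 7 of 35 replication windows against 301 of all (1.11%), and TTTGGCGC in 7 of 35 against 145 (0.537%). Below are 107 bases of Ccnb2 (chr9:70421555-70421661, minus strand), 229 of Ube2c (chr2:164769689-164769917, plus strand) and 48 of Cdc6 (chr11:98907993-98908040, plus strand), 5′ to 3′, from RefSeq on GRCm38.p6. Capitals mark CCAAT boxes on either strand in Ccnb2 and Ube2c, in Ube2c also the CHR, which is the last run of capitals, and in Cdc6 the E2F site, all in the letters of the printed strand.
Ccnb2: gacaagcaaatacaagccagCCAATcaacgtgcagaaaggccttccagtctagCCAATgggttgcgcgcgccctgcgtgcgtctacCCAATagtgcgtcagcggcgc
Ube2c: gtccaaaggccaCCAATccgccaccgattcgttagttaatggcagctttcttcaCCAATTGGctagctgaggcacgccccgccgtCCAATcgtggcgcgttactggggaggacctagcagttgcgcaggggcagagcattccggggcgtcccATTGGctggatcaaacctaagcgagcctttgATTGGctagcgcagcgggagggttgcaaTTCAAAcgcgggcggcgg
Cdc6: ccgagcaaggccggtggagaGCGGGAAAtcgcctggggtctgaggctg
The CCAAT boxes of Ccnb2 began 87, 54 and 21 bases before the start. In Ube2c 2 of the 6 overlap, and its CHR began 29 bases before the start. The E2F letters of Cdc6 began 138 bases before it. These matches describe the windows and are no evidence of binding.

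Among the lists of energy genes the oxidative phosphorylation subunits had the largest share called higher, at 37.3%. Of 51 oxidative phosphorylation genes 19 rose and 1 fell, with a median of 0.37. Ndufa4, a mitochondrial subunit, read 4.27, 4.10 and 4.20 at 2 h and 4.98, 5.01 and 5.01 at 24 h, Cox7c and Atp5c1 rose by 0.77 ± 0.16 and 0.71 ± 0.14, and Cycs, cytochrome c, read 4.32, 4.46 and 4.58 at 2 h and 2.71, 3.43 and 3.02 at 24 h. The rises numbered 8 with quantile normalization, 11 with the array median, 9 within the one scan day, 8, 1 and 1 without E3 2 h replicate 1, 2 or 3, 6 without E3 24 h replicate 3 and 0 with the slide effect. Of 27 glucose genes 8 rose and 5 fell (29.6% and 18.5%, against 21.9% and 15.3% of all genes). The glycolytic genes Gpi1 and Pfkm and the pentose phosphate gene Pgls rose by 0.90 ± 0.12, 1.04 ± 0.14 and 1.00 ± 0.22. The lactate transporter gene Slc16a1 fell by 2.39 ± 0.28 and hexokinase Hk2 by 2.15 ± 0.44. Without E3 2 h replicate 2 or 3, or E3 24 h replicate 3, the glucose rises numbered 2, 3 and 4. Of 23 amino acid genes 4 fell and 2 rose (17.4% and 8.7%, against 15.3% and 21.9% of all genes). Slc7a5, Slc7a1 and Slc38a1 were lower by 2.37 ± 0.23, 1.07 ± 0.24 and 1.02 ± 0.28 and Slc7a3 and Psat1 higher by 1.34 ± 0.41 and 0.54 ± 0.14. When E3 2 h replicate 2 or 3 was left out, 1 amino acid gene fell and 0 rose in each case, and without E3 24 h replicate 2, 5 rose. Among 33 proteasome genes Psmd12 alone was called, lower by 0.59 ± 0.12, and 4 fell without E3 24 h replicate 2. Of 19 clock genes tested, out of 20 listed, 8 fell and 4 rose (42.1% and 21.1%, against 15.3% and 21.9% of all genes). Nfil3, Per2 and Bhlhe40 were lower by 2.85 ± 0.23, 2.02 ± 0.23 and 1.88 ± 0.41. Dbp and Nr1d1 were higher by 1.61 ± 0.12 and 1.56 ± 0.24. After removal of E3 2 h replicate 2, 5 clock genes fell and 2 rose. The labels do not give the hour of day at collection.

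The same interval after estradiol, the stronger oestrogen in this tissue, was measured on other arrays. There 8446 of 15609 genes were called (54.1%). Over 15312 genes tested for both, 2453 were called higher with each oestrogen and 1850 lower with each, and 50 in opposite directions. The shared rises were 73.0% of the 3362 under estriol and 48.5% of the 5056 under estradiol, and the shared falls 78.9% of 2346 and 57.0% of 3243. Changes correlated with r = 0.788 across these genes, which are not independent and come from arrays that share slides. For the 3 lists that fell furthest the median was -2.97 under estriol and -3.07 under estradiol (immediate early genes), -2.17 and -2.16 (early oestrogen-response genes) and -1.51 under each (feedback genes). Other falling lists were further apart, ribosome biogenesis at -0.92 and -0.50 and heat shock chaperones at -0.65 and -0.13. Col1a1 changed by 2.94 and 2.93, and Fos by -5.71 and -5.84.

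The difference of the changes, estriol minus estradiol, was tested over the 12 oestrogen arrays. It was called for 457 of 15699 genes (2.91%), 181 with the larger value under estriol and 276 with the larger under estradiol. Of the 44 replication genes 22 had a called difference, every one of them lower under estriol, with a median of -0.96. Cdc6 read -2.40, -2.52 and -2.43 at 2 h and -1.80, -1.92 and -1.42 at 24 h of estradiol, a rise there where estriol gave a fall, and its difference was -1.94 ± 0.27 (adjusted p = 0.011 by limma). Mcm2 read 0.71, 1.16 and 1.00 at 2 h and 1.22, 1.40 and 1.65 at 24 h of estradiol, a difference of -1.46 ± 0.31. Mcm4 differed by -0.96 ± 0.17 and Tipin by -1.09 ± 0.21. Of 14 nucleotide genes 7 and of 30 repair genes 9 had such a difference, Rrm2 at -1.05 ± 0.20, Nme1 at -1.52 ± 0.33 and Uhrf1 at -1.98 ± 0.28, and of 25 G1 and S genes 5, with Ccne2 at -2.08 ± 0.45. The histone gene H3c1 differed by -2.33 ± 0.47. The replication differences numbered between 7 (without E2 2 h replicate 3) and 28 (without E3 24 h replicate 1) as single arrays were left out, with 12 to 14 without E2 2 h replicate 1 or 2, E2 24 h replicate 1 or 2, E3 2 h replicate 2 or 3 or E3 24 h replicate 3, and 0 with the slide effect, while the median stayed between -1.15 and -0.82 over every alternative run.

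The mitotic median was 0.67 under estriol and 1.81 under estradiol, with 5 called differences of 60. Ccnb1 changed by 1.47 under estriol and 2.43 under estradiol, a difference that was not called (-0.96, adjusted p = 0.269 by limma). Mean levels of the list on the estradiol arrays were -1.15, -1.32 and -1.29 at 2 h and 0.41, 0.53 and 0.34 at 24 h, so all 3 estradiol 24 h arrays were above E3 24 h replicate 1 at -0.11. Without E3 24 h replicate 1, the estriol array with the highest mitotic level, 39 of the 60 differences were called. With E2 2 h replicate 3 left out 0 were called, and without any other array between 1 and 5.

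Some sterol and fatty acid synthesis genes also differed between the oestrogens. Under estriol 11 of 32 genes fell and 4 rose, with a median of -0.43; under estradiol the median was 0.93. The difference was called for 10, every one lower under estriol. Sqle, squalene epoxidase, read 1.41, 1.86 and 1.61 at 2 h and 0.74, -0.42 and -0.14 at 24 h of estriol, and 1.13, 2.10 and 1.61 at 2 h and 2.51, 2.96 and 2.78 at 24 h of estradiol, a difference of -2.7 ± 0.44 (adjusted p = 0.018 by limma). Msmo1 differed by -2.32 ± 0.44, and Mvk rose by 1.06 ± 0.17 under estriol and more under estradiol, a difference of -1.65 ± 0.22. The isomerase gene Idi1 fell by 1.65 ± 0.46 under estriol, and Ebp rose by 1.00 ± 0.13. The estriol falls numbered 5, 2 and 3 without E3 2 h replicate 1, 2 or 3, 3 without E3 24 h replicate 3 and 0 with the slide effect. The differences numbered 3 with E2 2 h replicate 3 left out, 4 with E3 2 h replicate 3 left out, 6 when either E2 24 h replicate 2 or the second E3 2 h array was, 19 and 15 without E3 24 h replicate 1 or 2, and 0 with the slide effect.

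**Figure D4:**
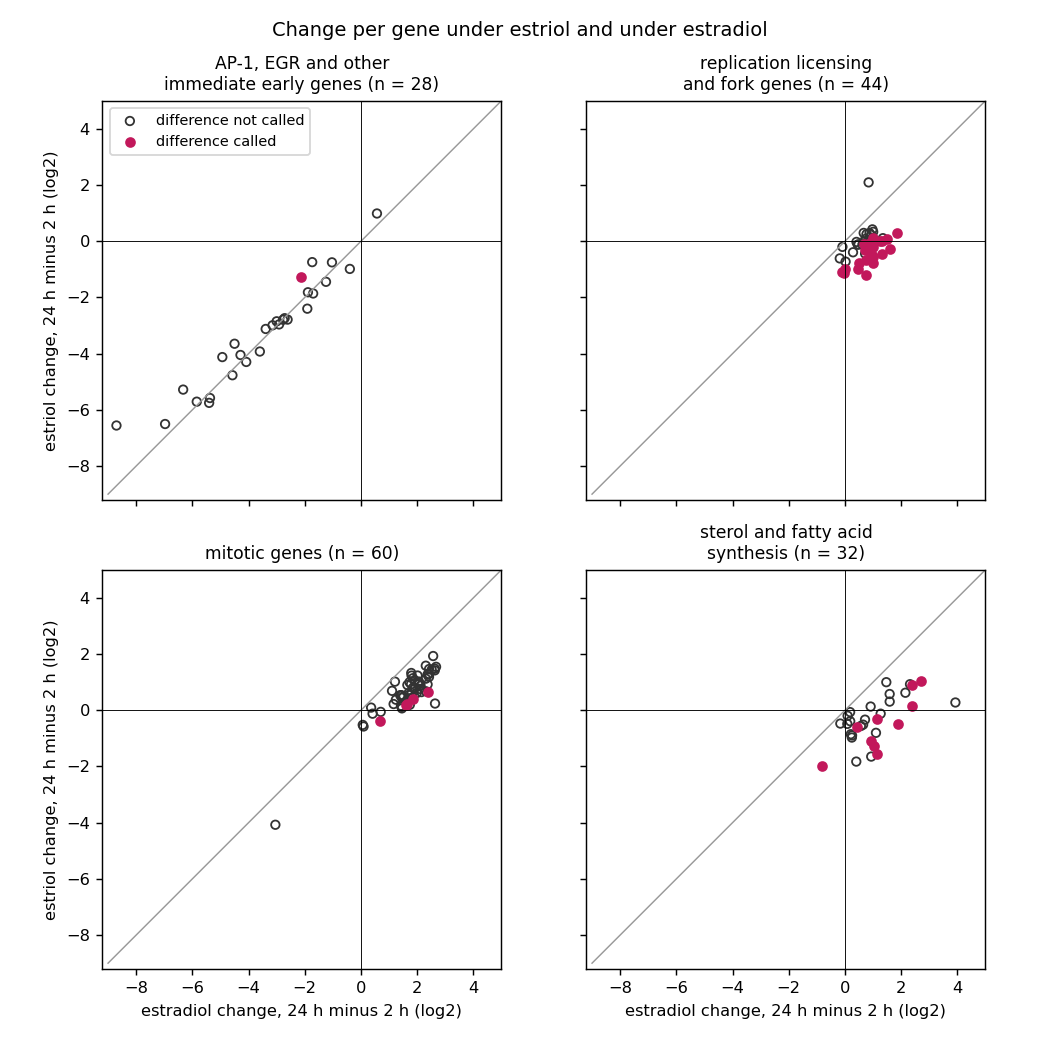
Change from 2 h to 24 h (log2) under estradiol (horizontal) and estriol (vertical) for each tested member of 4 lists; filled points have a called difference between the oestrogens and the diagonal marks equal changes. Immediate early genes lie along the diagonal with 1 called difference of 28 (Jun, 0.86, above the diagonal), 22 of 44 replication genes and 10 of 32 sterol genes have a called difference, each below the diagonal, and 5 of 60 mitotic genes have one.

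The largest single differences were in genes that estradiol lowered and estriol did not. Mlana, a melanocyte antigen, read -2.81, -3.17 and -2.46 at 2 h and -1.80, -2.34 and -2.06 at 24 h of estriol, and -0.99, -1.57 and -2.56 at 2 h and -5.05, -5.71 and -5.61 at 24 h of estradiol, a difference of 4.49 ± 0.51 (adjusted p = 0.0078 by limma). Coch, an extracellular matrix protein, read -1.13, -0.49 and -0.43 at 2 h and -5.36, -4.90 and -5.02 at 24 h of estradiol and was not called under estriol, a difference of 3.64 ± 0.44. The methyltransferase gene Inmt differed by 4.68 ± 1.05, the elongase gene Elovl3 by 4.25 ± 0.96 and Serpind1, heparin cofactor, by 3.92 ± 0.83. Their estriol 24 h arrays were uneven: Inmt read 3.08, 5.27 and 1.80 and Elovl3 read -4.65, -1.20 and -3.98. At 24 h of estradiol Elovl3 read -7.95, -8.32 and -7.42 and Serpind1 read -8.22, -7.28 and -8.98. These levels are very low, so the sizes of both differences are uncertain. Crabp1, a retinoic acid binding protein, went the other way and read -0.54, 0.02 and -0.80 at 24 h of estradiol against -3.67, -3.29 and -3.14 at 24 h of estriol, a difference of -3.2 ± 0.61. Ccl7 fell under estriol, at -2.37, and was not called under estradiol, at -0.24. Rsad2 was the one interferon-response gene with a called difference, 1.73 ± 0.40 (adjusted p = 0.0499 by limma). The median of that list was 1.54 under estriol and 0.87 under estradiol. The count of 457 was between 65 (without E2 2 h replicate 3) and 1055 (without E3 24 h replicate 2) as single arrays were left out, and between 103 and 260 without E2 2 h replicate 1 or 2, E2 24 h replicate 1 or 2, any E3 2 h array or E3 24 h replicate 3. Under the slide effect, with E3 24 h replicate 2 as its one estriol 24 h array, it was 0, with 1736 genes at an unadjusted p under 0.05, against 3434 without it.

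Set against vehicle, the lists that fell furthest had 24 h medians nearer to vehicle than their 2 h medians. These values share the estriol arrays with the comparison above and the vehicle arrays with each other, and are given side by side with no test. The median difference from vehicle of the immediate early genes was 2.92 at 2 h and -0.32 at 24 h, of the early oestrogen-response genes 2.00 and 0.14, of the ribosome biogenesis genes 0.81 and -0.04 and of the feedback genes 1.35 and -0.17. For the secretory genes it was -0.09 at 2 h and 1.24 at 24 h, for the interferon genes -0.89 and 0.48, for the macrophage markers -0.43 and 0.89, for the mitotic genes -0.17 and 0.53 and for the replication genes -0.01 and -0.26. The kallikreins were far above vehicle at both times, at 5.26 and 4.67.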

How the data were processed

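The deposited files are the authors' scanner output of 15 one-colour Agilent mouse arrays, as intensity per spot from Feature Extraction (9.5.3.1 per the file headers, 9.5 per the submitters' processing notes); no other step is recorded there. The processed signal of 43379 non-control spots was put on the log2 scale, centred on the 75th percentile of its array and averaged over unflagged spots into 41174 probes. Probes well above background on all 3 arrays of a time were tested with limma 3.58.1 (R 4.3.3) on the 6 estriol arrays, and differences from estradiol on 12 arrays. A gene was taken as its tested probe of highest mean over the 15 arrays, named through RefSeq accessions or symbols where they matched and otherwise as the files give it (8440 probes). Fixed gene lists are described by counts and medians, with no test.

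The genes named were the 12 largest rises and falls, up to 5 a list (3 in its majority direction), the 5 largest differences from estradiol each way, and fixed genes of the oestrogen response and cell cycle; others are said to be chosen after their values were seen or carry a called difference. Some genes that this rule gives are not reported here. The comparison, its members and the lists were chosen with earlier results of these data known. "At least N-fold" sets the mean of the brighter time against the lowest signal well above background, or the probe's own if higher, on the arrays of the other time. "Slide effect" is slide as a fixed block over the 12 oestrogen arrays. In that fit E3 24 h replicates 1 and 3 were alone on their slide. They add nothing to the estimated change and enter only its residual spread.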

Additional observations from a re-analysis of the deposited data

Results flagged for a closer look

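The change from 2 h to 24 h differed between estriol and estradiol, by limma's test of the difference over 12 arrays with Benjamini-Hochberg adjustment, for 23 named genes. No call of a difference was left with the slide effect, a fit in which the estriol 24 h time rests on replicate 2 alone, and why the changes differ was not tested. In replication, nucleotide, repair and G1 to S genes the estriol change was lower: Cdc6 by -1.94, Mcm2 by -1.46, Mcm4 by -0.96, Tipin by -1.09, Rrm2 by -1.05, Nme1 by -1.52, Uhrf1 by -1.98, Ccne2 by -2.08 and the histone gene H3c1 by -2.33. In sterol synthesis it was lower for Sqle by -2.7, Msmo1 by -2.32 and Mvk by -1.65. It was also lower for the chemokine gene Ccl7 by -2.13, the retinoid binding gene Crabp1 by -3.2, cytochrome c (Cycs) by -1.31 and the serine synthesis gene Psat1 by -1.09. The estriol change was higher for Inmt by 4.68, Mlana by 4.49, Elovl3 by 4.25, Serpind1 by 3.92, Coch by 3.64, the interferon-response gene Rsad2 by 1.73 and the Wnt amplifier Rspo3 by 1.3. The adjusted p-values of the 23 genes lay between 0.0078 and 0.05. For Elovl3 and Serpind1 the sizes are uncertain, as their levels at 24 h of estradiol were very low.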

How the results depend on the processing

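Of the named estriol changes recomputed under each alternative, 4097 kept direction and side of the threshold, 739 lost the call, 12 gained it and 15 turned sign; of the named differences from estradiol these were 231, 183, 0 and 0. Of 5728 genes called, 2293 were at an adjusted p under 0.01 and 2688 also passed 2-fold. Under the slide effect 135 genes were called, and not all of these were among the 5728. Leaving out each array gave 2676 to 6016 calls. The cause of these moves was not tested, beyond the stricter thresholds. With the replicate block 3865 genes were called. The labels do not state that equal numbers pair samples. Deviations of same-numbered arrays from their group means correlated at -0.04, -0.12 and 0. Whether these arrays also shared an injection or processing batch was not tested. The 457 called differences became 893 with all 15 arrays in the fit, 166 with the replicate block, 0 with the slide effect, and 65 to 1055 as each array was left out. With the slide effect, which at 24 h of estriol rests on replicate 2 alone, Cldn5 was at -0.18, Grhl2 at 0.34, H2-Eb1 at -0.48, Klf2 at -0.05, Mlana at -0.27, Msr1 at -0.5, Pcp4 at -0.22, Trim15 at 0.3 and Xrcc3 at -0.61, each against its sign without it. As the mean of the probes Bcl2l2 was at 0.18 and Klf2 at -0.74; on their other probes Bcl2l2 was at 1.12, Irs1 at -0.26, Klf2 at -2.47 and Krt13 at -0.07. Genes near background, such as Ccne2 and Fosl1 at 24 h, are limited by signal over background.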
